A study of Mus musculus with 12 samples.

Results

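Replication-dependent histone genes encode the H1, H2A, H2B, H3 and H4 proteins that package newly copied DNA. They were taken here as every gene named H1f1 to H1f5, or H2ac, H2bc, H3c or H4c with a number, or carrying an older Hist name, on a probe set with exactly 1 gene symbol. That rule gave 26 of the 19938 genes tested, namely 4 H1, 4 H2A, 9 H2B, 3 H3 and 6 H4 genes. By RefSeq on GRCm38.p6, 22 lie on chromosome 13 and 4 on chromosome 3. RefSeq lists 62 protein-coding genes that match the rule, and the other 36 are named only on probe sets that carry several symbols, which are described separately below.

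Hearts were dissected at stage E8.75 of mouse development, and their RNA was measured on 12 arrays, 3 for each of 4 genotypes. Tbx5 KO;Nkx2-5 KO hearts, labelled as knockouts of both genes and called double KO here, were compared with Tbx5 KO, Nkx2-5 KO and WT (wild type) hearts. Nkx2-5 is a homeodomain transcription factor and Tbx5 a T-box transcription factor, and both are needed for normal heart formation. The labels call the replicates biological. They do not give the strain, the deleted part of each gene, the tissue in which it was lost, or whether an array held 1 heart or a pool.

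The groups are named by their labels throughout. On the deposited log2 scale the Nkx2-5 probe set read 9.33 to 9.36 in WT, 8.72 to 9.13 in Nkx2-5 KO, 9.31 to 9.38 in Tbx5 KO and 8.97 to 9.21 in double KO. Both groups labelled as lacking Nkx2-5 therefore lay below the others. Against WT, the difference passed a limma adjusted p under 0.05 in Nkx2-5 KO but not in double KO. The Tbx5 probe set read 9.90 to 10.15 in WT, 10.15 to 10.53 in Nkx2-5 KO, 10.42 to 10.73 in Tbx5 KO and 10.31 to 10.83 in double KO. It was not lower where the labels name a Tbx5 KO, and since the labels do not say which part was deleted, it checks neither label. Xist, the RNA of the inactive X chromosome, read 11.46 to 12.32 on every WT and Tbx5 KO array and 6.44 to 8.16 on every Nkx2-5 KO and double KO array. The Y chromosome genes Eif2s3y and Uty read 5.07 to 6.92 and 5.38 to 6.67 on the WT and Tbx5 KO arrays. On the Nkx2-5 KO and double KO arrays they read 10.33 to 10.67 and 9.22 to 9.89. This difference cannot be told apart from genotype where Nkx2-5 KO or double KO hearts are compared with WT or Tbx5 KO hearts. Its part in the histone changes was not tested. The summed level of 10 heart muscle markers spanned 16.67 to 16.72 in WT and 16.68 to 16.72 in double KO. Of these markers, 2 were higher and 1 lower in double KO against WT at a limma adjusted p under 0.05. The shares of all genes tested were 9.05% and 14.4%. The like sums therefore do not mean that each marker stayed level. Arrays of 1 group correlated at 0.969 to 0.984 over genes and arrays of different groups at 0.958 to 0.981.

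Most replication-dependent histone genes have no introns, sit in clusters, and are transcribed when DNA is being copied. Their mRNAs usually end in a conserved stem-loop bound by Slbp instead of a poly(A) tail, and they are destroyed when DNA synthesis stops. In dividing embryonic heart cells, histone supply therefore normally goes together with S phase. Some of these genes can also give polyadenylated mRNAs, which are known from cells that leave the cycle and differentiate.

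Upstream stretches of 6 members are shown because these genes carry the result that follows. The RefSeq table (GRCm38.p6) held a promoter window of 250 bases before to 50 bases after the start for 22 of the 26 members. H2bc4, H2bc21, H3c7 and H4c14 had no entry. The 150 bases just before the annotated start are printed 5′ to 3′ on the gene's own strand, and capitals mark 4 motifs on either strand. These are the TATA box in its form TATAAA, the CCAAT box that many S phase promoters carry, the octamer of H2B promoters, which reads ATTTGCAT, and the H1 box, which reads AAACACA. The first 3 genes rose in double KO hearts and the last 3 fell. H2bc8 is read from the plus strand at chr13:23571250-23571399, H3c4 plus at chr13:23575613-23575762, H1f2 plus at chr13:23738657-23738806, H1f5 minus at chr13:21780626-21780775, H2ac4 plus at chr13:23750938-23751087 and H4c4 plus at chr13:23581418-23581567.
H2bc8: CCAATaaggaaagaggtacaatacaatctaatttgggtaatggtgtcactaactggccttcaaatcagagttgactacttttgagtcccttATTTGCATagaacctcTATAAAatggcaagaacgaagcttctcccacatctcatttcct
H3c4: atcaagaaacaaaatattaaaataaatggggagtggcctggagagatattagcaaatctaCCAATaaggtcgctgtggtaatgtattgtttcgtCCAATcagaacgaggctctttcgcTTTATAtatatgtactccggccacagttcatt
H1f2: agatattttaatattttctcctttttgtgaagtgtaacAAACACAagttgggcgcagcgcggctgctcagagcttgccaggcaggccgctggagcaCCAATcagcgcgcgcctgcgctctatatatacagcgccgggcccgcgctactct
H1f5: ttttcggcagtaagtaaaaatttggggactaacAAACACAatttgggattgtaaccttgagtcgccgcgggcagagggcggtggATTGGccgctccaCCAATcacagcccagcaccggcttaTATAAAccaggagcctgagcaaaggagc
H2ac4: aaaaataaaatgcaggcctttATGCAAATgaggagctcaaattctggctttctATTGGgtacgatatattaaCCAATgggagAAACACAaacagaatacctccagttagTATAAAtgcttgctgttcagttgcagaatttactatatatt
H4c4: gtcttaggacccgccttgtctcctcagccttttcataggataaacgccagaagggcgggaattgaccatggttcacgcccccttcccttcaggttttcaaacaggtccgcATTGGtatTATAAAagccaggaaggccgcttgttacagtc
All 6 stretches hold CCAAT, and 5 hold TATAAA, the exception being H1f2.

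Over the whole windows of 300 bases, counting both strands, TATAAA occurred in 15 of 22 members and in 13.6% of 32851 windows in the RefSeq table. CCAAT occurred in 19 of 22 members against 37.4% of all windows. ATTTGCAT was found in 8 of 22, all of them H2A or H2B genes, against 1.74% of all windows. AAACACA was found in 7 of 22, among them H1f2, H1f3 and H1f5, against 7.18%. A core of T-box sites, AGGTGT, occurred in 3 of 22 members (H2ac1, H2bc1 and H2bc14) against 13.7% of all windows. A core of NK2-type homeodomain sites, AAGTG, occurred in 12 of 22 against 46.4%. These 6 motifs do not contain one another, and a match describes the letters only. Both the CCAAT box and the TATA box occurred among genes that rose and among genes that fell. None of the windows of H3c4, H1f5, H2ac4, H4c4 and H4c6 held either core on either strand. The windows of H2bc8, H1f2 and H3c15, which rose in double KO, and of H2ac15, which fell, held AAGTG.

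In double KO hearts, histone genes were called in both directions. Compared with WT, 5 of 26 rose and 5 of 26 fell at a limma adjusted p under 0.05, the threshold used throughout, while 9.05% of all genes tested were called higher and 14.4% lower. H2bc4 and H2bc8 (H2B), H3c15 and H3c4 (H3) and H1f2 (linker histone H1) rose between 2.12-fold and 5.77-fold. H2ac4 and H2ac15 (H2A), H1f5 (linker histone H1), and H4c4 and H4c6 (H4) fell between 1.39-fold and 2.70-fold. Neither Nkx2-5 KO nor Tbx5 KO hearts had a histone gene that was called against WT. The median change of the 26 genes in double KO was -0.22 on the log2 scale, beside 0.06 for all genes tested. In bulk tissue, fewer cells of a type and less RNA per cell cannot be told apart. Nothing in the labels says whether the replicates came from separate litters, so the p-values measure the spread between these arrays.

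The share that fell was close to that of all genes, and its count depended on single arrays. It was 2 without WT replicate 1 or without double KO replicate 2, 3 without Tbx5 KO replicate 1, and 8 without double KO replicate 3. With each array centred on its median, which moved the median of all genes by -0.12 in this comparison, 5 members were called higher and 10 lower instead of 5 and 5. The 5 that rose were called in all 12 fits that each left out 1 array.

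**Figure D1:**
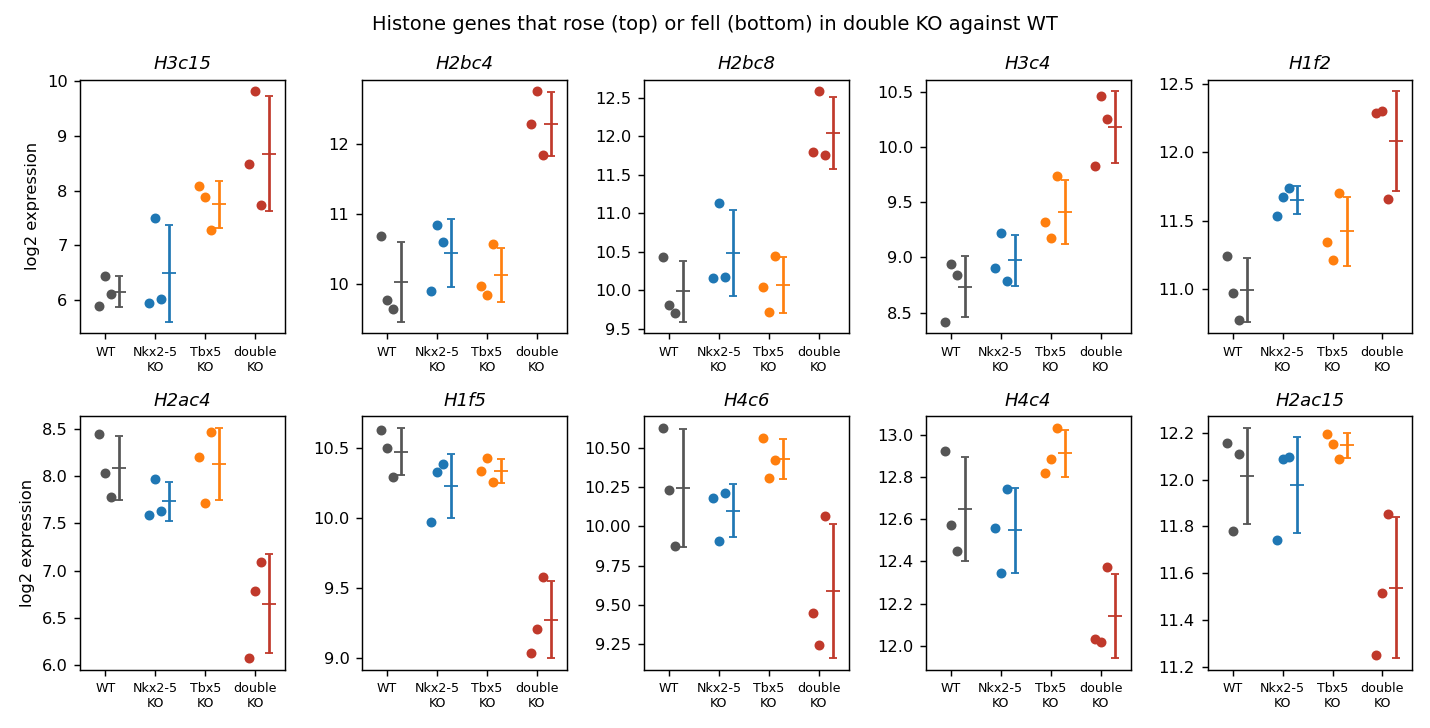
Deposited log2 expression of the 10 histone genes called in double KO against WT, with 1 point per array in the 4 groups and the group mean ± SD (n = 3) beside the points. The y axes differ between panels and do not start at 0. For the 5 genes of the top row every double KO point lies above every WT point, and in the bottom row the double KO points of H4c6 and H2ac15 reach into the WT range.

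H2bc4 and H2bc8 are core histone H2B genes of the chromosome 13 cluster, at 23684199 to 23692480 and 23571400 to 23571863. H2bc4 read 10.68, 9.78 and 9.64 in WT, 9.90, 10.84 and 10.60 in Nkx2-5 KO, 9.98, 9.85 and 10.57 in Tbx5 KO, and 12.28, 12.75 and 11.84 in double KO. H2bc8 read 10.43, 9.81 and 9.71 in WT, 10.16, 11.13 and 10.16 in Nkx2-5 KO, 10.04, 9.72 and 10.45 in Tbx5 KO, and 11.80, 12.59 and 11.75 in double KO. Every double KO array lay above all 9 other arrays for both genes. Against WT, H2bc4 rose by 2.25 ± 0.32 (log2 change ± SE, 4.76-fold, adjusted p = 0.000351) and H2bc8 by 2.06 ± 0.30 (4.18-fold, adjusted p = 0.000441). They also rose against each single KO. The rise of H2bc4 was 1.84 ± 0.32 against Nkx2-5 KO (adjusted p = 0.00618) and 2.15 ± 0.32 against Tbx5 KO (adjusted p = 0.00115). The rise of H2bc8 was 1.56 ± 0.30 against Nkx2-5 KO (adjusted p = 0.0114) and 1.98 ± 0.30 against Tbx5 KO (adjusted p = 0.00137). The H2bc8 call against Nkx2-5 KO was lost without Nkx2-5 KO replicate 1 or without double KO replicate 2.

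The other 7 H2B genes did not follow this pair. None was called against WT, and H2bc9, the H2B gene named for its highest mean signal, had a change of -0.35 (adjusted p = 0.0789). H2bc3 fell against Tbx5 KO by 0.54 ± 0.16 (adjusted p = 0.049), a call lost in 10 of the 12 fits that left out 1 array. H2bc21 read 9.73, 9.01 and 7.35 in double KO and 9.20, 9.66 and 10.40 in WT. Its change of -1.06 did not pass the test (adjusted p = 0.157), and double KO replicate 3 lay under every other array. H2ac8, which encodes H2A, is the head-to-head neighbour of H2bc8, with 179 bases between the annotated gene ends that hold the H2bc8 stretch printed above. It read 4.85, 5.27 and 4.88 in WT and 5.06, 5.79 and 5.09 in double KO, a change of 0.31 that did not pass the test (adjusted p = 0.265). These values lie far under the array medians of 8.05 to 8.25, so this probe set may hardly show a change.

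H3c15 and H3c4 encode core histone H3, on chromosome 3 (96238479 to 96239127) and chromosome 13 (23575763 to 23576266). H3c15 read 5.88, 6.44 and 6.12 in WT, 5.94, 7.51 and 6.02 in Nkx2-5 KO, 8.09, 7.89 and 7.27 in Tbx5 KO, and 8.48, 9.82 and 7.73 in double KO. H3c4 read 8.42, 8.94 and 8.84 in WT, 8.91, 9.23 and 8.79 in Nkx2-5 KO, 9.32, 9.17 and 9.73 in Tbx5 KO, and 9.83, 10.46 and 10.25 in double KO. For both genes the Tbx5 KO arrays lay above all WT arrays, and the double KO arrays lay above all WT and Nkx2-5 KO arrays. The double KO arrays of H3c4 also lay above the Tbx5 KO arrays, while those of H3c15 overlapped them. Against WT, H3c15 rose in double KO by 2.53 ± 0.48 (5.77-fold, adjusted p = 0.0024) and H3c4 by 1.45 ± 0.20 (2.72-fold, adjusted p = 0.000265). Against Nkx2-5 KO the rises were 2.19 ± 0.48 for H3c15 (adjusted p = 0.0209) and 1.21 ± 0.20 for H3c4 (adjusted p = 0.00458). The H3c15 call against Nkx2-5 KO was lost without Nkx2-5 KO replicate 1 or 3 or double KO replicate 2. Against Tbx5 KO, H3c4 rose by 0.77 ± 0.20 (adjusted p = 0.0253), a call lost without Tbx5 KO replicate 1 or 2 or double KO replicate 2 or 3, and H3c15 was not called. In Tbx5 KO against WT the changes were 1.60 ± 0.48 for H3c15 (adjusted p = 0.116) and 0.67 ± 0.20 for H3c4 (adjusted p = 0.106), and neither passed the test. The third H3 gene, H3c7, had a change of -0.42 in double KO against WT (adjusted p = 0.0938). Its mean of 4.84 over all arrays lies far under the array medians of 8.05 to 8.25, so it may hardly show a change.

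The linker histones, which bind DNA between nucleosomes, moved in both directions. H1f2 (chr13:23738807-23739531) read 11.24, 10.97 and 10.78 in WT, 11.53, 11.68 and 11.74 in Nkx2-5 KO, 11.35, 11.21 and 11.70 in Tbx5 KO, and 12.28, 12.30 and 11.66 in double KO. H1f5 (chr13:21779832-21780625) read 10.63, 10.49 and 10.29 in WT, 9.97, 10.33 and 10.38 in Nkx2-5 KO, 10.33, 10.43 and 10.26 in Tbx5 KO, and 9.04, 9.21 and 9.58 in double KO. The double KO arrays of H1f2 lay above all WT arrays, while those of H1f5 lay under all 9 others. H1f2 rose against WT by 1.08 ± 0.18 (2.12-fold, adjusted p = 0.00101) and H1f5 fell by 1.20 ± 0.15 (2.29-fold lower, adjusted p = 0.000158). H1f5 also fell against Nkx2-5 KO by 0.95 ± 0.15 (adjusted p = 0.00382) and against Tbx5 KO by 1.06 ± 0.15 (adjusted p = 0.000816), and no single array ended any of its 3 calls. H1f2 rose against Tbx5 KO by 0.66 ± 0.18 (adjusted p = 0.0359), with overlapping arrays and a call lost without Tbx5 KO replicate 1 or 2 or double KO replicate 1 or 2. In Nkx2-5 KO against WT its change was 0.65 ± 0.18 (adjusted p = 0.0631), with all 3 arrays above the WT arrays. H1f1 had a change of -0.35 (adjusted p = 0.134) and H1f3 of 0.41 (adjusted p = 0.269) in double KO against WT.

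Of the 4 core histone H2A genes, 0 were called higher and 2 lower in double KO against WT, beside 9.05% and 14.4% of all genes. H2ac1 and H2ac8 were not called. H2ac4 (chr13:23751088-23751592) read 8.45, 8.04 and 7.78 in WT, 7.59, 7.97 and 7.63 in Nkx2-5 KO, 8.20, 7.72 and 8.47 in Tbx5 KO, and 6.08, 6.79 and 7.09 in double KO, with every double KO array under all others. It fell by 1.44 ± 0.26 against WT (2.70-fold lower, adjusted p = 0.00157), by 1.08 ± 0.26 against Nkx2-5 KO (adjusted p = 0.0299) and by 1.48 ± 0.26 against Tbx5 KO (adjusted p = 0.00296). The call against Nkx2-5 KO was lost without any 1 of the Nkx2-5 KO arrays and without double KO replicate 1 or 2. H2ac15, the H2A gene named for its highest mean signal, read 12.16, 11.78 and 12.11 in WT and 11.25, 11.52 and 11.85 in double KO, so the groups overlapped. It fell by 0.48 ± 0.16 against WT (1.39-fold lower, adjusted p = 0.0424) and by 0.61 ± 0.16 against Tbx5 KO (adjusted p = 0.0252). These calls were lost in 7 and 5 of the 12 fits that left out 1 array.

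Of the 6 core histone H4 genes, 0 were called higher and 2 lower in double KO against WT, beside the same shares of all genes, 9.05% and 14.4%. H4c4 (chr13:23581568-23581969), the H4 gene named for its highest mean signal, read 12.92, 12.57 and 12.45 in WT, 12.56, 12.34 and 12.74 in Nkx2-5 KO, 12.82, 12.88 and 13.03 in Tbx5 KO, and 12.03, 12.02 and 12.37 in double KO. Its double KO arrays lay under all WT and Tbx5 KO arrays. It fell by 0.51 ± 0.15 against WT (adjusted p = 0.0246) and by 0.77 ± 0.15 against Tbx5 KO (adjusted p = 0.00499). The call against WT was lost without WT replicate 1 or double KO replicate 1 or 2, and the call against Tbx5 KO was made in all 12 fits that left out 1 array. H4c6 read 10.63, 10.23 and 9.88 in WT and 9.45, 9.25 and 10.06 in double KO. Its groups overlapped, and it fell by 0.66 ± 0.21 against WT (adjusted p = 0.0394) and by 0.84 ± 0.21 against Tbx5 KO (adjusted p = 0.0222), calls lost in 6 and 4 of the 12 fits that left out 1 array. The remaining 4 H4 genes were not called in any comparison.

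**Figure D2:**
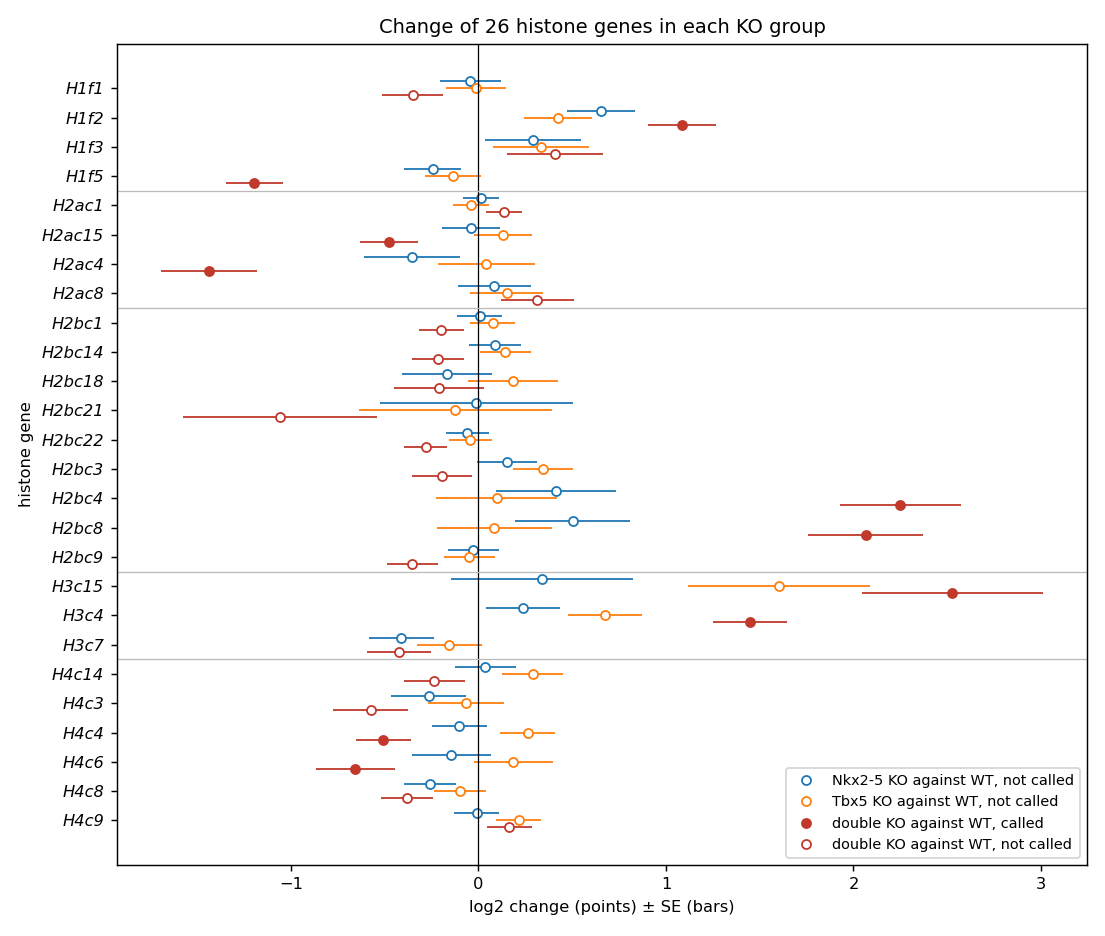
Log2 change against WT of all 26 histone genes in Nkx2-5 KO, Tbx5 KO and double KO, as points with SE bars from limma, ordered by histone class with grey lines between classes. Filled points mark genes called at an adjusted p under 0.05. Only double KO has filled points, 5 on each side of 0, with H3c15 farthest right at 2.53 and H2ac4 farthest left at -1.44.

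Double KO was also compared with each single KO. Against Nkx2-5 KO, 4 of 26 histone genes rose in double KO (H3c15, H2bc4, H2bc8 and H3c4) and 2 fell (H2ac4 and H1f5), while 1.01% of all genes were called higher and 4.55% lower. Xist was low in both of these groups, at 6.59 to 7.03 in Nkx2-5 KO and 6.44 to 8.16 in double KO. Its part in this comparison was not tested. Against Tbx5 KO, 4 rose (H2bc4, H2bc8, H3c4 and H1f2) and 6 fell (H2ac4, H1f5, H4c6, H4c4, H2ac15 and H2bc3), while 2.87% of all genes were called higher and 7.86% lower. The count that fell against Nkx2-5 KO was 1 without any 1 of the Nkx2-5 KO arrays or without double KO replicate 1 or 2, and 5 without double KO replicate 3. The count that rose was 2 without Nkx2-5 KO replicate 1 or double KO replicate 2. Against Tbx5 KO, the count that fell was 3 without Tbx5 KO replicate 1 or double KO replicate 1, and the count that rose was 2 without Tbx5 KO replicate 1 or 2 or double KO replicate 2. The median changes of the 26 genes were -0.21 and -0.29, beside 0.04 and 0.05 for all genes. The 3 comparisons with double KO share the double KO arrays, so a gene called in several of them is not measured independently each time.

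Loss of either factor alone gave no call among the 26 genes by limma. The shares of all genes given here are at the adjusted threshold. They are not a measure for the counts at an unadjusted p, for which no share of all genes was taken. In Nkx2-5 KO against WT, 1 gene was higher and 1 lower at an unadjusted p under 0.05, with a median of -0.01 beside 0.00 for all genes, while 1.84% of all genes were called higher and 2.59% lower. In Tbx5 KO against WT, 3 were higher and 0 lower at an unadjusted p under 0.05, namely H3c15, H3c4 and H1f2, with a median of 0.11 beside 0.01, while 0.998% of all genes were called higher and 1.31% lower. Between the single KOs, Tbx5 KO against Nkx2-5 KO, 0 of 26 were called and 3 were higher at an unadjusted p under 0.05. There 1.01% of all genes were called higher and 1.37% lower. Other settings called at most 1 histone gene higher in each of these 3 comparisons.

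Whether the double loss exceeded the sum of both single losses was tested with a non-additive term on the log2 scale. No histone gene was called for it, beside 0.0903% of all genes called higher and 0.456% lower. At an unadjusted p under 0.05, 2 histone genes were positive and 8 negative. This threshold is looser, and the share of all genes that passed it was not taken. The 5 largest terms included 1.74 ± 0.45 for H2bc4 and 1.48 ± 0.43 for H2bc8 (adjusted p = 0.147 and 0.216) and -1.12 ± 0.36 for H2ac4 and -0.82 ± 0.21 for H1f5 (adjusted p = 0.289 and 0.147). The other was -0.92 ± 0.73 for H2bc21 (adjusted p = 0.796), whose double KO arrays were far apart. Weighting the arrays by their quality called 2 genes higher. Without double KO replicate 3, 2 genes were called lower.

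Most probe sets that carry several symbols show the core histones as pools. There were 26 probe sets with several symbols. Most name 11 to 20 symbols and share them, so they are not independent of each other. The exceptions name 2 genes each, H2bc6 with H1f4 and H4c11 with H4c17. Fitted with all other genes, 0 rose and 11 fell in double KO against WT, where 14.4% of the features were called lower, and 21 fell against Tbx5 KO, where 7.98% were. The median change against WT was -0.45, and the 11 include all 10 probe sets of the H3 pool. The count against WT was 21 without double KO replicate 3, and the count against Tbx5 KO was 10 without Tbx5 KO replicate 1 or double KO replicate 1 and 11 without double KO replicate 2. Centring each array raised the count against WT to 22, and weighting the arrays raised it to 18.

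Every probe set of the H3 pool fell. Its 10 probe sets each name 12 H3 genes, including H3c4, H3c7 and H3c15, and their mean read 11.09, 10.85 and 10.78 in WT, 10.76, 10.79 and 10.69 in Nkx2-5 KO, 10.98, 10.95 and 11.09 in Tbx5 KO, and 9.83, 10.14 and 10.53 in double KO. Every double KO array lay under all others, and all 10 probe sets fell against WT, with a median change of -0.74 and adjusted p from 0.0013 to 0.0061. The H3 pool and the H3c4 and H3c15 probe sets therefore differed in direction on the same arrays.

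The H4 pool of 5 probe sets, each naming 11 genes, read 13.07, 12.78 and 12.60 in WT and 12.26, 12.10 and 12.72 in double KO. It overlapped between these groups, with 1 probe set called lower against WT and 5 against Tbx5 KO (median changes -0.47 and -0.65). Among the 7 H2B probe sets, which name 14 or 15 genes including H2bc4 and H2bc8, none was called against WT and 5 fell against Tbx5 KO (median change -0.42). The 2 H2A probe sets, which also name H3c4, were not called in either comparison.

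**Figure D3:**
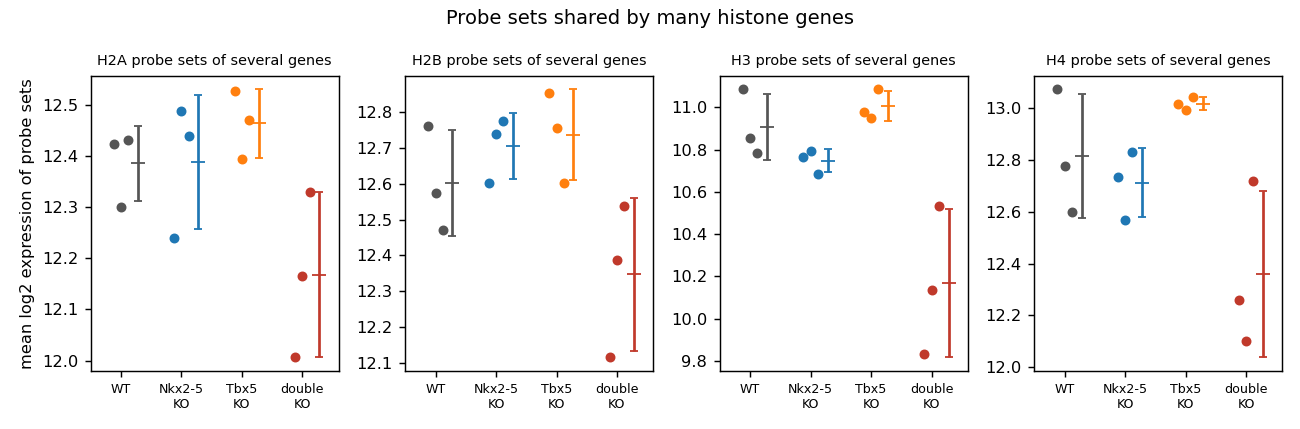
Mean log2 expression of the probe sets that name several H2A, H2B, H3 or H4 genes, with 1 point per array in the 4 groups and the group mean ± SD (n = 3) beside the points. The y axes differ between panels and do not start at 0. In the H3 panel all 3 double KO points, from 9.83 to 10.53, lie under the 9 others, while in the H4 panel the highest double KO point reaches 12.72.

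How the probe sets are annotated differed among the members that rose. The platform table lists no RefSeq mRNA, only other accessions, for 3 of the 26 members, and these 3 were H1f2, H3c15 and H3c4. A 4th gene that rose, H2bc4, is 1 of 3 members whose annotated span exceeds 1000 bases, at 8282 bases, beside H2bc21 (2667 bases) and H2bc22 (14079 bases). The 5th, H2bc8, spans 464 bases and has a RefSeq mRNA in the platform table. These features were looked up after the changes were known. The probe positions are not given in the sources used here, and whether these probe sets read transcripts other than the stem-loop mRNA was not tested. The sources also do not say whether the amplification was primed on poly(A) tails.

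Among genes that make and process histone mRNA, those called in double KO were lower with 1 exception. Of 23 measured genes of histone mRNA synthesis, 3′ end processing and decay, 1 rose and 10 fell against WT, with a median change of -0.32. Over all genes tested 9.05% were called higher and 14.4% lower in this comparison, and the median was 0.06. Casp8ap2, a factor of histone gene transcription, fell by 1.16 ± 0.14 (adjusted p = 0.000108), Ncbp2 of the nuclear cap-binding complex by 1.01 ± 0.13 (adjusted p = 0.000185), and Cpsf2 of the 3′ end cleavage complex by 0.89 ± 0.13 (adjusted p = 0.000432). Slbp, the stem-loop binding protein, read 10.24, 10.11 and 10.24 in WT, 9.95, 9.94 and 9.66 in Nkx2-5 KO, 9.72, 9.53 and 9.81 in Tbx5 KO, and 9.44, 9.38 and 9.73 in double KO. All 9 KO arrays lay under all WT arrays. Slbp fell by 0.68 ± 0.12 in double KO (adjusted p = 0.00153) and by 0.51 ± 0.12 in Tbx5 KO (adjusted p = 0.0499, lost in 10 of the 12 fits that left out 1 array), and its change of -0.35 in Nkx2-5 KO did not pass the test (adjusted p = 0.136). Npat, the activator of histone gene transcription at S phase entry, had a change of 0.02 in double KO (adjusted p = 0.934). In the single KOs, 3 of the 23 fell in Nkx2-5 KO (Ncbp2, Casp8ap2 and Ncbp1), where 2.59% of all genes were called lower, and 1 in Tbx5 KO, where 1.31% were.

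Histone chaperones carry new histones to DNA. Of 21 measured, 0 rose and 10 fell in double KO against WT, beside 9.05% and 14.4% of all genes, with a median change of -0.40. Chaf1b of the CAF-1 complex fell by 1.13 ± 0.23 (adjusted p = 0.00338), Asf1b, an H3-H4 chaperone, by 0.92 ± 0.12 (adjusted p = 0.00016), and Nasp, another, by 0.87 ± 0.13 (adjusted p = 0.000431). Asf1b also fell in Nkx2-5 KO, by 0.84 ± 0.12 (adjusted p = 0.00271), and was higher in Tbx5 KO than in Nkx2-5 KO by 0.59 ± 0.12 (adjusted p = 0.017), a call lost without 4 of the 12 arrays in turn. Replacement histones, which are made outside S phase as well, had 0 of 9 higher and 5 of 9 lower in double KO against WT, beside the same shares of all genes, with a median of -0.44. H2ax, which marks DNA breaks, fell by 1.14 ± 0.18 (adjusted p = 0.000647) and Cenpa, the centromeric H3, by 1.11 ± 0.12 (adjusted p = 5.2e-05).

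Most measured cell cycle genes fell in double KO. Of 39 genes of DNA replication and S phase, 0 rose and 31 fell in double KO against WT, beside 9.05% and 14.4% of all genes, with a median change of -0.998. Prim1, the primase subunit, fell by 2.17 ± 0.25 (adjusted p = 9.04e-05) and Rrm2, a subunit of ribonucleotide reductase, fell by 2.14 ± 0.25 (adjusted p = 9.68e-05). All 19 genes of G2 and M phase fell, with a median of -1.21. Against Nkx2-5 KO, 21 of the 39 and 19 of the 19 fell, beside 4.55% of all genes called lower. Against Tbx5 KO, 28 of the 39 and 19 of the 19 fell, beside 7.86%. In the single KOs against WT, 5 of the 39 fell in Nkx2-5 KO and 1, Fen1, in Tbx5 KO. The shares of all genes called lower there were 2.59% and 1.31%. Of the 19 G2 and M genes, 0 were called in either single KO. The difference between these lists and the histone genes was not tested.

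**Figure D4:**
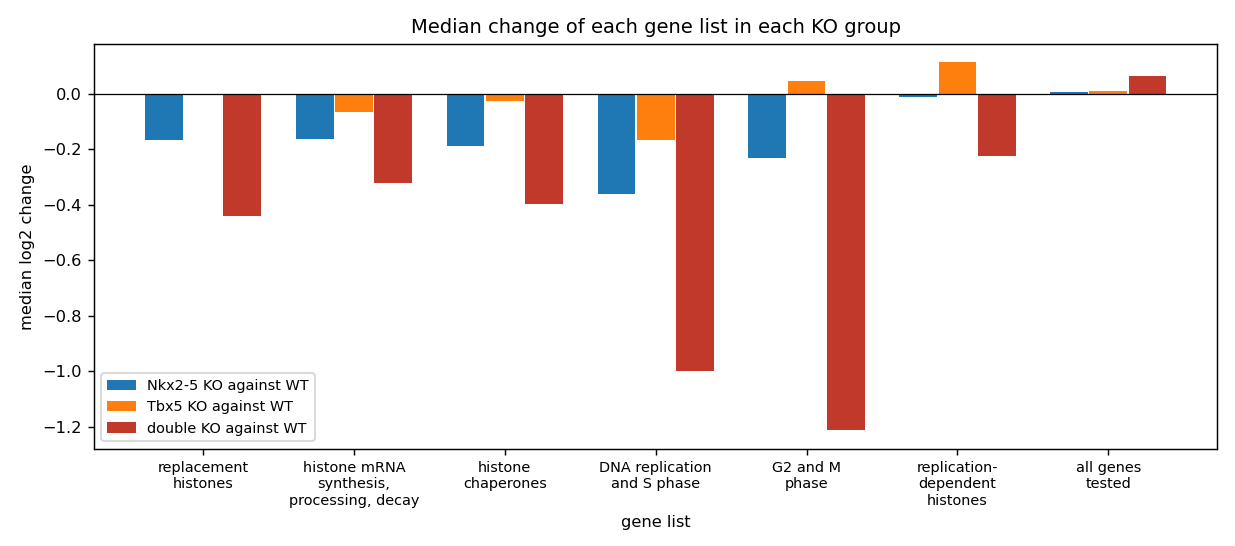
Median log2 change against WT of 5 gene lists, of the 26 replication-dependent histone genes and of all genes tested, as bars for Nkx2-5 KO, Tbx5 KO and double KO. In double KO the bars reach -0.998 for S phase genes and -1.21 for G2 and M genes, beside -0.22 for the replication-dependent histones.

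Markers of other cells were read in the same comparisons, beside 9.05% of all genes called higher and 14.4% lower in double KO against WT. A count of 1 in a list of 8 or 10 lies near these shares, and lists this short give only coarse shares. Of 8 primitive erythroid genes, 0 were higher and 4 lower against WT, and their summed log2 level spanned 14.41 to 15.57 in WT, 14.50 to 15.44 in Nkx2-5 KO, 14.76 to 14.81 in Tbx5 KO and 13.07 to 14.38 in double KO. Among 10 endothelial markers 1 was higher and 3 lower, and their summed level spanned 12.90 to 13.69 in WT and 13.28 to 13.39 in double KO. Among 10 foregut and visceral endoderm markers 3 were higher (11.03 to 11.55 in WT and 11.40 to 11.67 in double KO), and among 8 neural markers 2 were higher and 1 lower (11.32 to 11.77 and 11.57 to 11.67). Of these, Sox17 and Pax6 were also called higher, and Tubb3 lower, in both single KOs against WT. Among 8 white blood cell and platelet markers 1 was higher and 1 lower (11.09 to 11.76 and 10.92 to 11.06). Of 6 trophoblast and decidua markers, 3 were higher in Tbx5 KO against WT, with summed levels of 12.71 to 13.01 against 12.19 to 12.25, and 0 were called in double KO. Of 8 male germ cell markers, 1, Prm1, was higher in double KO and in Nkx2-5 KO, by 2.50 ± 0.27 in each, and the summed level spanned 10.52 to 10.86 in WT, 11.45 to 11.92 in Nkx2-5 KO, 10.66 to 10.81 in Tbx5 KO and 11.61 to 12.03 in double KO. The part of these cells in the histone changes was not tested.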

How the data were processed

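Per the labels' protocols, RNA was extracted by PicoPure, and cDNA from NuGEN Ovation amplification was fragmented and given biotin by the Encore module. The authors deposited log2 expression values for 35557 probe sets on 12 arrays, and these sources name no software for their summarisation or normalisation. The values ran from 3.21 to 14.7, with array medians from 8.05 to 8.25. The number of arrays, 3 a group, limits the precision.

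GEO's platform annotation gave 1 symbol to 21789 probe sets, several to 1621 and none to 12147. Genes on probe sets with 1 symbol were kept, and the probe set with the highest mean stood for each of the 999 genes with several, leaving 19938 genes. All 26 histone genes had 1 such probe set and were matched to RefSeq by Entrez ID. The histone genes and the gene lists were chosen with earlier results of these data known.

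The deposited log2 values were fitted with limma 3.58.1 (lmFit and eBayes, R 4.3.3) with 1 mean per genotype over all 12 arrays, and group means were compared, two-sided, with Benjamini-Hochberg adjustment over all genes within each of 7 comparisons. A gene was called at an adjusted p under 0.05. The steps were tested on simulated data with known changes. Genes were named by rule: every H1 gene, the called members, the member of each class with the highest mean and with the largest change, and up to 4 called genes of each other list per comparison, with Slbp and Npat. Other members and 4 marker genes were named after their values were seen. Alternatives were renewed normalisation, centring of arrays, an intensity trend, array weights, only the compared arrays, the replicate number as a block, the mean of a gene's probe sets, a filter on dim genes, added probe sets with several symbols, and leaving out each array.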

Additional observations from a re-analysis of the deposited data

Results flagged for a closer look

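For 6 genes of the cell cycle lists the loss of Tbx5 had a different effect with and without Nkx2-5, by limma's non-additive term on the log2 scale, and no histone gene met this rule. The term was -1.46 for Birc5, -1.43 for Kif11, -1.36 for Ttk, -1.35 for Nusap1, -1.05 for Aurkb and -1.10 for Pole. All 6 were lower in double KO than the sum of both single changes, and the first 5 act in mitosis while Pole is a DNA polymerase subunit. The adjusted p was 0.00506 for Birc5 and 0.0136 for Kif11, whose calls were made without each array in turn. It was 0.0416 for Ttk and Aurkb, 0.049 for Nusap1 and 0.0348 for Pole, and these calls were lost without 10, 11, 10 and 9 of the 12 arrays in turn. Groups of 3 arrays were not searched for single outlying arrays.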

How the results depend on the processing

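The 5 histone genes that rose in double KO against WT numbered 5 under every setting tried. The filter on dim genes kept a gene by its highest group mean. H3c15, with a mean of 6.15 in WT and 8.68 in double KO, was judged by its double KO level. That setting therefore adds no support for its rise. Each histone gene had 1 probe set, so taking the mean of a gene's probe sets left its values unchanged. Adding several-symbol probe sets also left these values unchanged. Such settings could hardly move the count of 5, so they add no support either. Over fits without each array in turn, the counts against WT were 5 to 5 higher and 2 to 8 lower, against Nkx2-5 KO 2 to 5 higher and 1 to 5 lower, and against Tbx5 KO 2 to 4 higher and 3 to 7 lower. Nkx2-5 KO against WT gave 0 to 1 higher. The non-additive term gave 0 to 2 lower, with a median of -0.38 to -0.13. The several-symbol probe sets that fell numbered 10 to 21 against WT and 10 to 22 against Tbx5 KO. The change of H2bc18 in double KO against WT, -0.21, turned to 0.046 without WT replicate 1, and neither was called.

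Centring gave 10 lower and a median of -0.35 against WT, 2 higher against Tbx5 KO, and 22 several-symbol probe sets lower against WT. Array weights gave 1 higher in Nkx2-5 KO against WT, in Tbx5 KO against WT and in Tbx5 KO against Nkx2-5 KO, 4 lower in double KO against Nkx2-5 KO, 2 higher for the non-additive term, and 18 several-symbol probe sets lower against WT. An intensity trend gave 1 higher in Nkx2-5 KO against WT. Fitting only the arrays compared, with fewer residual degrees of freedom, gave 1 higher in each single KO against WT, and in double KO 2 lower against WT, 1 lower against Nkx2-5 KO and 2 higher against Tbx5 KO. It cannot give the non-additive term. The filter on dim genes gave 1 higher in Nkx2-5 KO against WT and 1 lower in double KO against Nkx2-5 KO.

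Adding several-symbol probe sets whose genes are all histones gave, in double KO, 16 lower with a median of -0.42 against WT, 8 and -0.34 against Nkx2-5 KO, 22 and -0.61 against Tbx5 KO, and a non-additive median of -0.56. Adding those with any histone, a setting chosen after seeing the data, gave 16 and -0.36, 8 and -0.35, 27 and -0.47, and -0.52. The alternatives for the several-symbol probe sets were also chosen after seeing the data.

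The replicate numbers did not pair the arrays: deviations of 18 same-numbered pairs correlated from -0.27 to 0.21. With the replicate number as a block, 1 histone gene was called higher in Tbx5 KO against WT and 1 lower in double KO against Nkx2-5 KO. Single genes were followed for every call, and for every member in double KO against WT, called or not. Without 1 array, 443 of 504 values kept direction and side of the threshold, as did 380 of 410 under the other settings. The uncalled members among them had no call to lose. A call was lost in 53 of the 504 and in 19 of the 410. The cause of these shifts was not tested.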
